A study of Homo sapiens with 5 samples.

Results

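The phagocyte NADPH oxidase was followed through 5 of its genes, CYBB, CYBA, NCF1, NCF4 and RAC2, in MonoMac6 cells, an established human monocytic line. The genes were chosen by symbol, and every probe set whose only listed gene is one of them was used, which gave 5 of 19775 genes and 11 of the 41097 probe sets with 1 gene symbol. The cells had 12 h with 1 of 4 eicosanoids at 100 nM, dissolved in DMSO: leukotriene B4 (LTB4), leukotriene C4 (LTC4), lipoxin A4 (LXA4) and lipoxin B4 (LXB4). A further culture was left unstimulated. Each of the 5 conditions was read on 1 GeneChip array, so no value below has a replicate and no test was possible. A DMSO control for the unstimulated culture was not stated in the labels. In bulk RNA, fewer cells of a type and less RNA per cell cannot be told apart.

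The oxidase carries electrons from NADPH across a membrane to oxygen and so makes the superoxide of the respiratory burst. CYBB encodes the catalytic membrane subunit, which holds the flavin and haems, and CYBA its smaller membrane partner, which stabilises it and gives the docking site for the cytosolic proteins. NCF1 is the organizer that, once phosphorylated, brings the cytosolic complex to the membrane, and NCF4 is a further cytosolic subunit that binds phosphoinositides of the phagosome. RAC2 is a small GTPase of haematopoietic cells that can switch the assembled enzyme on. Loss of CYBB, CYBA, NCF1 or NCF4 causes forms of chronic granulomatous disease.

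The myeloid expression of CYBB and NCF1 is known to depend on PU.1, the transcription factor encoded by SPI1, which is itself on the array. Upstream sequences from RefSeq (GRCh38.p14) were held for 3 of the 5 genes, and the 250 bases before each annotated start are shown because the expression of SPI1 is reported beside that of its known targets. Capitals mark matches, on either strand, to the core of the PU.1 motif (GAGGAA, or TTCCTC on the other strand), the CCAAT box (CCAAT or ATTGG) and the GC box (GGGCGG or CCGCCC). The windows are chrX:37779809-37780058 on the plus strand for CYBB, chr7:74773761-74774010 on the plus strand for NCF1 and chr16:88651054-88651303 on the minus strand for CYBA.
CYBB: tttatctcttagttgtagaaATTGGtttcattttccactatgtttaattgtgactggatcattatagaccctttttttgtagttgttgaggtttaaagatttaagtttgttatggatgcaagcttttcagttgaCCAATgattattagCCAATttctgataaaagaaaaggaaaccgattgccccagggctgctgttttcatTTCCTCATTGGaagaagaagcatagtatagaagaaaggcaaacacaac
NCF1: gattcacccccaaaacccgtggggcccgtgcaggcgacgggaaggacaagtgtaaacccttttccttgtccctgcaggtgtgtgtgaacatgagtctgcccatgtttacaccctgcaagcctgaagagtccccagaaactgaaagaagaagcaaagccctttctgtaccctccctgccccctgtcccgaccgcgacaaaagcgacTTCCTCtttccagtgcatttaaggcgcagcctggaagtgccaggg
CYBA: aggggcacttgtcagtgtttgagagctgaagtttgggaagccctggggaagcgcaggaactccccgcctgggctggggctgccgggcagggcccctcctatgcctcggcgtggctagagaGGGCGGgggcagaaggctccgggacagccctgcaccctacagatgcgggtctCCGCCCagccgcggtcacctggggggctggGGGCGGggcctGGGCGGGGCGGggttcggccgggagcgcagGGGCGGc
In CYBB and NCF1 a PU.1 core lay on the opposite strand, beginning 48 bases before the CYBB start and 45 bases before the NCF1 start. In CYBB it abutted a CCAAT box on the same strand, 1 of 4 in that window. CYBA had no PU.1 core or CCAAT box in its window and held 6 GC boxes, of which 2 shared a base. Of 35116 upstream windows of this length, 23.6% held a PU.1 core, 32.0% a CCAAT box and 42.6% a GC box, so each single match is common. The windows also differed in composition, with 34.0% G or C in CYBB, 56.4% in NCF1 and 73.6% in CYBA, beside a median of 58.0% over all windows. A match describes the letters and is not a measured binding site.

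**Figure D1:**
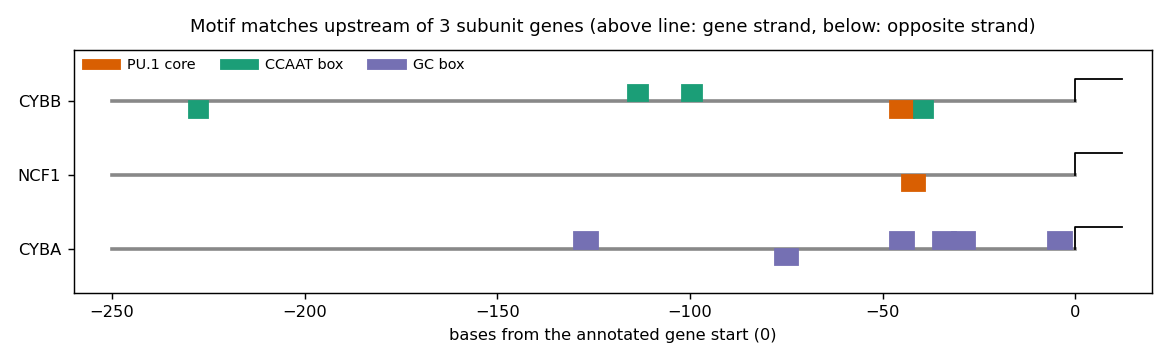
Motif matches in the 250 bases before the annotated start of CYBB, NCF1 and CYBA. The x axis is the distance in bases from the start, boxes above each line lie on the gene's strand and boxes below it on the opposite strand. PU.1 cores begin 48 and 45 bases before the starts of CYBB and NCF1, and CYBA shows 6 GC boxes.

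Signals are the deposited intensities after 1 further scaling factor per array, between 0.978 and 1.03. Values under a floor of 48.7 were raised to it before differences were taken, and a probe set was called measured when it exceeded the floor on at least 1 array, as 10 of the 11 did. All 5 genes were measured, and 8 probe sets were above the floor on every array. Since probe affinity differs, signals are compared between arrays for 1 probe set, never between genes. As a yardstick in place of replicate error, the SD of log2 differences between pairs of stimulated arrays was 0.21 over 3968 genes with a mean signal of 500 to 2000 and 0.16 over 3129 genes above 2000, with 0.31 over 1988 genes of 200 to 500. This spread includes any true difference between the compounds. Over pairs with the unstimulated array the SD was larger, at 0.24 for genes of 500 to 2000, 0.18 above 2000 and 0.35 for 200 to 500. Below, the spread is that between stimulated arrays.

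Several facts of the arrays bear on these genes. Genes over a signal of 500 had median log2 differences from unstimulated cells of 0.05, 0.11, 0.05 and 0.05 with LTB4, LTC4, LXA4 and LXB4, so differences are also given relative to the median of genes of similar signal. The middle control probe set of 18S ribosomal RNA was 4.90-fold, 16.5-fold, 1.96-fold and 5.66-fold higher with LTB4, LTC4, LXA4 and LXB4, highest with LTC4. The 533 genes over a signal of 10000 had a median of -0.13 with LXB4, where 78.0% of them were lower, and 0.12 with LTC4. The 3' over 5' signal ratio lay between 0.996 and 1.06 on the stimulated arrays, against 1.03 on the unstimulated array, for GAPDH. Among monocytic markers LYZ (36104 to 48898 on stimulated arrays and 49118 on the unstimulated array) and MNDA (12861 to 15523 and 12582) were bright. CD14 (189 to 319 and 225), CSF1R (223 to 304 and 310) and ITGAM (127 to 178 and 160) were dim, and FCGR1A was under the floor on all 5 arrays. CD4 had 110 with LTC4 and 77.2 with LXA4 and was under the floor with LTB4 and LXB4, against 147 in unstimulated cells. The median log2 difference over the 6 measured of these 7 markers was -0.29 with LTB4, 0.04 with LTC4, -0.01 with LXA4 and -0.32 with LXB4, and its part in the oxidase values was not tested. Of 6 neutrophil markers CSF3R had 762 to 1001 on stimulated arrays and 1040 on the unstimulated array. CXCR2 had 438 to 614 and 442, and MMP9 was dim (148 to 197 and 173). CEACAM8 was above the floor with LTC4 alone (52.6), and LTF and FCGR3B were under it on all arrays. The summed signal of the 6 was 1392 to 1813 on stimulated arrays and 1702 on the unstimulated array. Of 5 T cell, 4 B cell, 4 erythroid and megakaryocyte and 5 fibroblast and epithelial markers none had a mean signal over 500, and their highest signals were 79.4, 168, 142 and 299.

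No subunit gene was 2-fold apart from unstimulated cells with any eicosanoid, by the brightest probe set of each. Over all 15374 measured genes, 2.43% were at least 2-fold apart with LTB4, 2.84% with LTC4, 2.39% with LXA4 and 2.47% with LXB4, so 0 of 5 is near the background. By their brightest probe sets, CYBB was higher on all 4 stimulated arrays, CYBA was nearly flat, and CYBB, NCF1, NCF4 and RAC2 were highest with LTC4. The second bright probe sets of NCF4 and RAC2 and the second of CYBB were not highest with LTC4. Above 0 were 3 of 5 genes with LTB4, 5 with LTC4, 4 with LXA4 and 3 with LXB4. Of the 7097 genes over a signal of 500, 60.5%, 72.0%, 62.8% and 59.6% were above 0 with LTB4, LTC4, LXA4 and LXB4. The 5 with LTC4 include CYBA, below 0 after quantile normalization, and NCF4, whose other bright probe set was below 0. After quantile normalization CYBA and NCF1 were below 0 with LXA4 (-0.02 and -0.04), as was NCF4 with LXB4 (-0.01). Both LXA4 values were also below 0 as deposited (-0.02 and -0.01). The median log2 difference over the 5 genes was 0.05 with LTB4, 0.26 with LTC4, 0.02 with LXA4 and 0.04 with LXB4. Over all measured genes it was 0.00, 0.06, 0.00 and 0.00 with LTB4, LTC4, LXA4 and LXB4. The median over the subunits was above 0 with LTC4 under all 3 other scalings tried, but it turned to -0.01 with LXA4 on the values as deposited and to -0.02 and -0.01 with LXA4 and LXB4 after quantile normalization. Relative to the median of genes over a signal of 500 it was -0.0030 with LTB4, 0.15 with LTC4, -0.03 with LXA4 and -0.01 with LXB4.

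**Figure D2:**
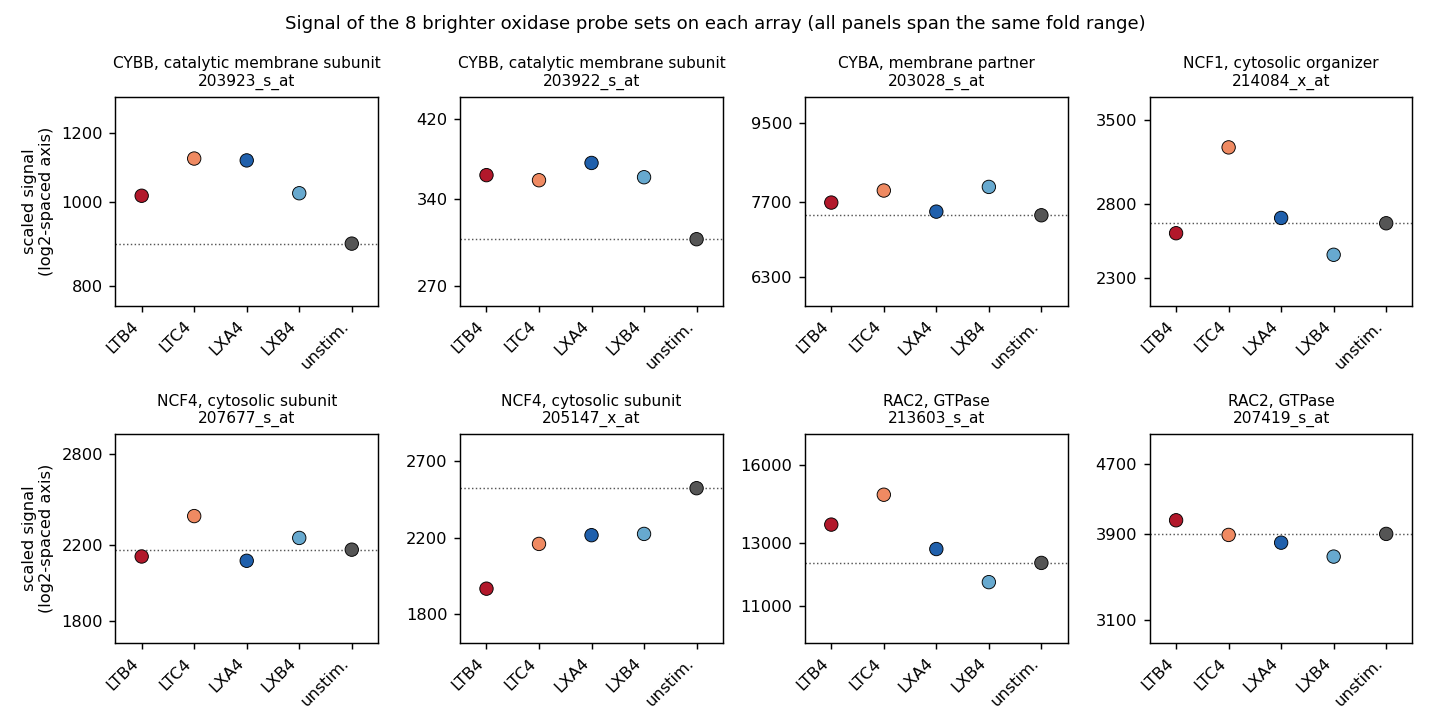
Scaled signal of the 8 oxidase probe sets with a mean signal over 300 on each of the 5 arrays. The x axis gives the leukotrienes (LTB4, LTC4), the lipoxins (LXA4, LXB4) and unstimulated cells (unstim.), and the y axis is log2-spaced with the same fold range in every panel. Each point is 1 array and the dotted line marks the unstimulated array. Both CYBB probe sets lie above the line on all 4 stimulated arrays, and 1 NCF4 probe set lies below it on all 4.

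At a smaller difference of 1.2-fold, 0 of the 5 genes were higher with LTB4, where 12.2% of the 7097 genes over a signal of 500 were. With LTC4 2 of 5, CYBB and NCF1, were at least 1.2-fold higher, against 17.6% of these genes. RAC2 lay just under that limit. With LXA4 it was CYBB alone, against 9.53%, and with LXB4 none, against 16.7%. None of the 5 was 1.2-fold lower on any stimulated array, against 8.0%, 6.2%, 4.95% and 10.3% of these genes with LTB4, LTC4, LXA4 and LXB4. With 5 genes, such counts cannot be told from the background.

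CYBB, on the X chromosome, had a signal of 1016 with LTB4, 1121 with LTC4, 1116 with LXA4 and 1023 with LXB4 on its brightest probe set, against 895 in unstimulated cells. Every stimulated array was thus above the unstimulated one, with log2 differences of 0.18 (LTB4), 0.33 (LTC4), 0.32 (LXA4) and 0.19 (LXB4). A second probe set had 362 with LTB4, 357 with LTC4, 374 with LXA4 and 360 with LXB4, against 306 in unstimulated cells, with log2 differences of 0.25, 0.23, 0.29 and 0.24. On both probe sets the unstimulated array was the lowest of the 5, and the largest step in the order of arrays was the one above it. The 4 comparisons share that array, so its error enters all of them.

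Relative to genes of similar signal, the difference of the brighter CYBB probe set was 0.14 (LTB4), 0.24 (LTC4), 0.27 (LXA4) and 0.13 (LXB4) on the log2 scale, which is 0.67, 1.16, 1.30 and 0.64 of the spread between stimulated arrays. Over pairs with the unstimulated array the SD for genes of this signal was 0.24, about the size of the LTC4 difference. Of genes with a signal of 500 to 2000, 26.1%, 11.3%, 7.38% and 29.6% were at least as high with LTB4, LTC4, LXA4 and LXB4. The direction was the same on the values as deposited (0.15, 0.26, 0.29 and 0.17 with LTB4, LTC4, LXA4 and LXB4) and after quantile normalization (0.15, 0.28, 0.28 and 0.16). Neighbours in the order of the 5 arrays, from LTC4 over LXA4, LXB4 and LTB4 to unstimulated cells, did not differ beyond that spread of 0.21, the largest step being 0.18. The other CYBB probe sets were dim. The brighter of them had 70.7 with LTB4, 28.4 with LTC4, 49.3 with LXA4 and 57.0 with LXB4, against 32.0 in unstimulated cells, near the floor, and the last was under it on all arrays (10.4 to 32.7 with eicosanoids and 27.4 without). On the dim probe set above the floor the order differed, with LTB4 highest and LTC4 under the floor.

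CYBA, on chromosome 16, was nearly level. Its bright probe set had 7686 with LTB4, 7936 with LTC4, 7503 with LXA4 and 8012 with LXB4, against 7431 in unstimulated cells. The log2 differences of 0.05, 0.09, 0.01 and 0.11 with LTB4, LTC4, LXA4 and LXB4 were at most 0.40 of the spread once the median of genes of similar signal was taken off, and with LTC4 and LXA4 their sign turned after quantile normalization, both to values within 0.02 of 0. As with CYBB, the unstimulated array was the lowest, but all 4 differences were smaller than the spread. A second CYBA probe set was dim, with 137 on the LTB4 array, 99.9 on the LTC4 array, 15.7 on the LXA4 array and 103 on the LXB4 array, against 115 on the unstimulated array. With LXA4 it was under the floor, at least 2.36-fold lower than in unstimulated cells, and it was the 1 of 10 measured probe sets at least 2-fold apart there, where 2.71% of all measured probe sets were. With LTB4, LTC4 and LXB4 0 of the 10 were 2-fold apart, against 2.89%, 3.53% and 3.12% of all. The bright probe set of the same gene gave 0.01 in that comparison.

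NCF1, on chromosome 7, varied most of the 5 genes, by 0.41 on the log2 scale from its highest to its lowest array. Its probe set had 2591 with LTB4, 3254 with LTC4, 2698 with LXA4 and 2447 with LXB4, against 2660 in unstimulated cells. LTC4 stood above the other 4 arrays, which lay close together. The log2 difference from unstimulated cells was 0.29 with LTC4, while it was -0.04, 0.02 and -0.12 with LTB4, LXA4 and LXB4. That with LXA4 turned to -0.04 after quantile normalization. The step from LTC4 to the next array, LXA4, was 0.27, above the spread of 0.16 for genes of this signal, and the other 3 steps were within it.

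NCF1 has near-identical pseudogenes, NCF1B and NCF1C, and the name of its probe set ends in _x_at, the maker's mark for probes that may bind other transcripts, so its values are uncertain as a measure of NCF1 alone. A probe set listed for all 3 genes, which is not counted among the 11, had 2506 with LTB4, 3277 with LTC4, 3068 with LXA4 and 2519 with LXB4, against 2655 in unstimulated cells. It was also highest with LTC4 (0.30), but with LXA4 it gave 0.21 where the NCF1 probe set gave 0.02. Relative to genes over a signal of 2000, whose median was 0.13 on the LTC4 array, the NCF1 difference there was 0.16, about the size of the spread, and 12.3% of those genes were at least as high. With LXB4 it was -0.17, also about the size of the spread, and 21.4% of those genes were at least as low. The LTC4 array was also the one with the brightest 18S ribosomal RNA signal, and the part of this in the result was not tested.

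NCF4, on chromosome 22, gave different pictures on probe sets of nearly the same brightness. The brighter had 2134 with LTB4, 2375 with LTC4, 2109 with LXA4 and 2241 with LXB4, against 2173 in unstimulated cells, with log2 differences of -0.03, 0.13, -0.04 and 0.04. The other, whose name ends in _x_at, had 1923 with LTB4, 2166 with LTC4, 2217 with LXA4 and 2224 with LXB4, against 2511 in unstimulated cells, with differences of -0.38, -0.21, -0.18 and -0.18. The first set was within the spread on every array, and the second was lowest with LTB4 and below unstimulated cells on all 4 stimulated arrays. With LTB4, 1.25% of genes over a signal of 2000 were at least as low as the second probe set.

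The gap between the NCF4 probe sets was 0.36 with LTB4 and 0.34 with LTC4. Among 2694 genes with at least 2 probe sets over a signal of 500, the median gap between the brightest pair was 0.15 and 0.17 in these comparisons, and 14.4% and 19.3% of the genes had a gap at least as large as that of NCF4. With LXA4 and LXB4 the gap was 0.14 and 0.22, and 47.2% and 44.0% of genes had one as large. No direction is given for NCF4. The brightest pair of CYBB probe sets differed by at most 0.10 in the comparisons with unstimulated cells, while the dim set near the floor lay further from them.

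RAC2, also on chromosome 22, had a signal of 13654 with LTB4, 14781 with LTC4, 12797 with LXA4 and 11720 with LXB4 on its brightest probe set, against 12334 in unstimulated cells. Both leukotriene arrays were above the others, with log2 differences from unstimulated cells of 0.15 and 0.26, against 0.05 and -0.07 with the lipoxins. Its second probe set had 4043 with LTB4, 3888 with LTC4, 3809 with LXA4 and 3671 with LXB4, against 3899 in unstimulated cells, with differences of 0.05, 0.00, -0.03 and -0.09. The LTC4 difference of the brighter set was thus not seen on the other, a gap of 0.27 against a median gap of 0.17 for all genes. No step in the order of the arrays exceeded the spread of 0.16 on either probe set. Genes of this brightness as a whole were higher with LTC4 and lower with LXB4 (medians of 0.12 and -0.13 over a signal of 10000), and the part of this in the RAC2 values was not tested.

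**Figure D3:**
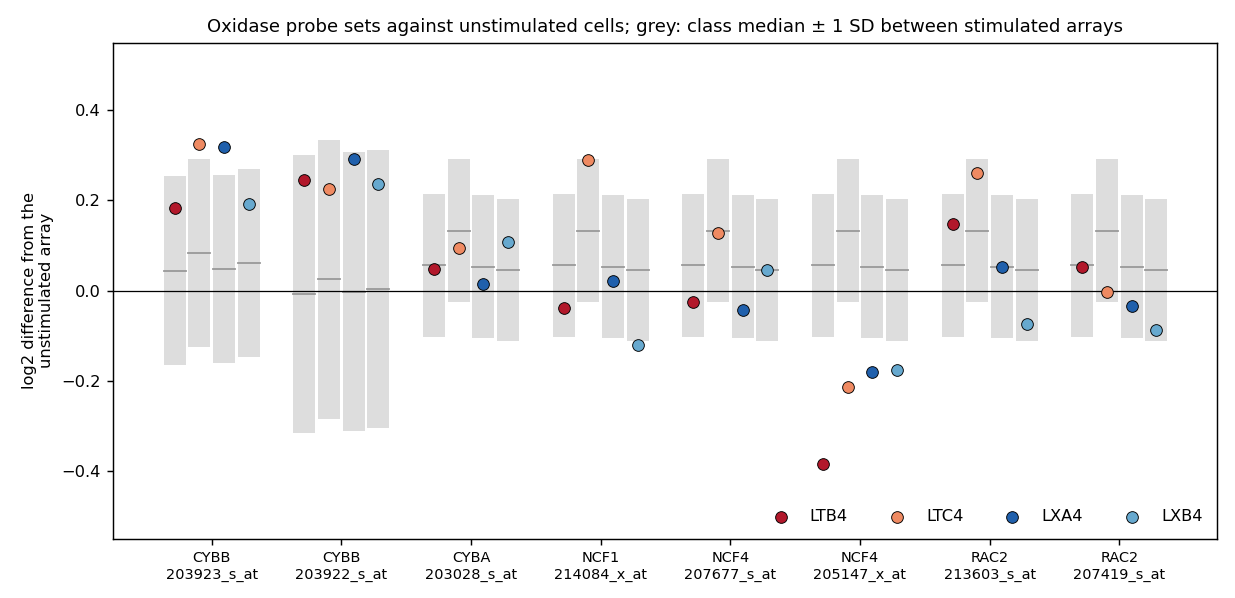
Log2 differences from the unstimulated array for the 8 oxidase probe sets with a mean signal over 300. Each point is 1 eicosanoid array, and each grey box spans the median of genes of similar signal plus or minus 1 SD of differences between stimulated arrays. CYBB lies above its box with LTC4 and LXA4 on its brighter probe set, and the NCF4 probe set ending in _x_at lies below its boxes. NCF1 lies just below its box with LXB4. With LTC4 the distance of that CYBB probe set from the median, 0.24, is about the SD of 0.24 over pairs with the unstimulated array.

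The eicosanoids were also compared with each other at the same dose and time, in 2 pairs. LTC4 is a glutathione conjugate and LTB4 a dihydroxy acid. All 5 genes were higher with LTC4 than with LTB4, by log2 differences of 0.33 for NCF1, 0.15 for NCF4, 0.14 for CYBB, 0.11 for RAC2 and 0.05 for CYBA, of which that of CYBA turned to -0.01 after quantile normalization. Of the 7097 genes over a signal of 500, 64.0% were above 0 in this comparison. NCF1 was the 1 gene at least 1.2-fold higher, where 9.81% were, and none was as far lower, where 5.4% were. At 2-fold, 0 of 5 passed, beside 2.43% of measured genes, and 2.88% of genes over a signal of 2000 were at least as high as NCF1. The second RAC2 probe set gave -0.06 and the second CYBB probe set -0.02.

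LXA4 and LXB4 are isomeric trihydroxy acids that differ in where the hydroxyl groups sit. With LXB4 against LXA4 the log2 differences were -0.14 for NCF1, -0.13 for CYBB, -0.13 for RAC2, 0.09 for NCF4 and 0.09 for CYBA. Each was within the spread of genes of its signal, and 0 of 5 genes were 1.2-fold apart, against 5.71% of genes over a signal of 500 higher and 7.36% lower. Above 0 were 2 of 5, against 50.1% of those genes, and 0 of 5 were 2-fold apart, against 1.31% of measured genes. The dim CYBA probe set was at least 2-fold higher with LXB4, where 1.66% of measured probe sets were 2-fold apart. The mean of both leukotriene arrays minus that of both lipoxin arrays was 0.21 for RAC2, 0.18 for NCF1, 0.05 for NCF4, 0.01 for CYBA and 0.00 for CYBB. None reached 1.2-fold, against 3.72% of genes higher and 2.58% lower. Above 0 were 4 of 5, against 58.6% of genes, but CYBA turned to -0.01 on the values as deposited and to -0.05 after quantile normalization. The second bright NCF4 probe set gave -0.12, the second of RAC2 0.08 and the NCF1 probe set shared with pseudogenes 0.04. None of the 5 genes was 2-fold apart, against 0.319% of measured genes. The 533 genes over a signal of 10000, among which RAC2 falls, had a median of 0.13 in this comparison. With 1 array per compound these differences have no interval, and they do not show that any pair of compounds acts alike.

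**Figure D4:**
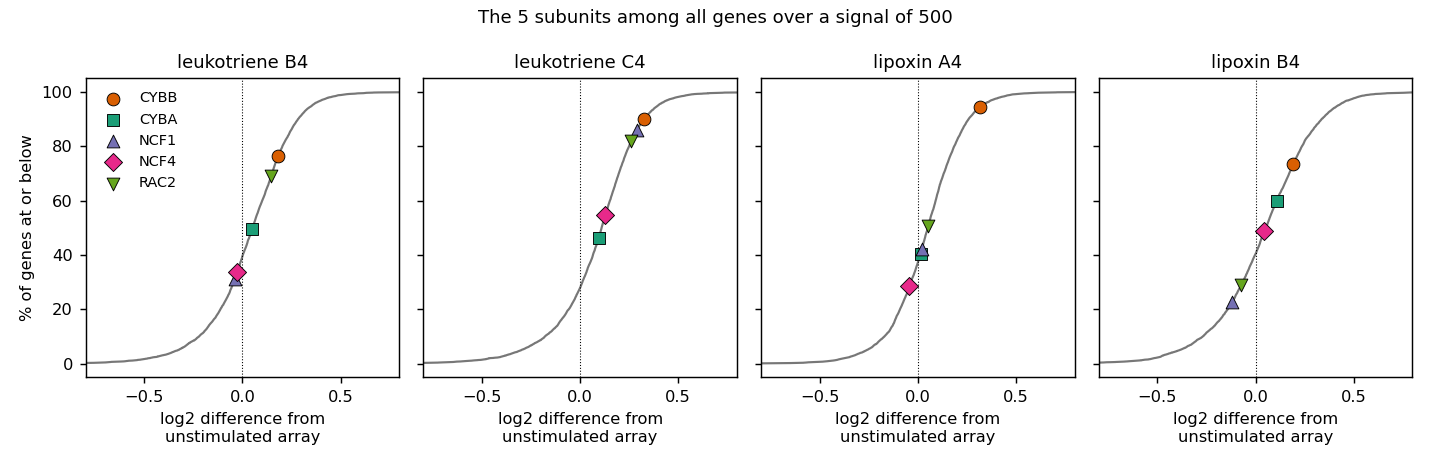
Cumulative share of the 7097 genes with a mean signal over 500 (y axis, percent) by log2 difference from the unstimulated array (x axis), 1 panel per eicosanoid. Symbols mark the 5 oxidase genes by their brightest probe set. CYBB is the highest of the 5 in every panel. All 5 lie above 0 with LTC4, but CYBA is below 0 there after quantile normalization and the other bright NCF4 probe set is at -0.21.

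The genes whose 4 differences from unstimulated cells came closest to those of each subunit were looked up among the 7092 other genes over a signal of 500. For NCF1, the gene of widest range, these were PSMB5, a catalytic subunit of the proteasome, GNG5, a G protein gamma subunit, and TBCA, a tubulin folding cofactor, with root mean square differences of 0.026, 0.030 and 0.031 on the log2 scale over the 4 arrays. PSMB5 had 6658 with LTB4, 8636 with LTC4, 7063 with LXA4 and 6498 with LXB4, against 6898 in unstimulated cells. For CYBB the nearest was RNF145, a ubiquitin ligase (0.019), for RAC2 TPCN2, an endolysosomal cation channel (0.025), for NCF4 LMAN2, a lectin of the secretory pathway (0.016), and for CYBA DHX36, a helicase (0.013). Within 0.05 lay 20 genes for NCF1, 37 for CYBB, 39 for RAC2, 145 for NCF4 and 173 for CYBA. With 4 values that share a reference, such nearness describes these arrays only.

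Around the core enzyme, 11 genes whose products switch it on or hold it back were measured. At 1.2-fold with LTB4, 1 gene was higher and 2 were lower. The counts were 1 and 1 in LTC4 cells, 0 and 1 in LXA4 cells and 1 and 2 in LXB4 cells. All 11 had a mean signal over 500, and of all genes over that signal 12.2%, 17.6%, 9.53% and 16.7% were 1.2-fold higher and 8.0%, 6.2%, 4.95% and 10.3% lower with LTB4, LTC4, LXA4 and LXB4. The list medians were 0.02, 0.04, -0.04 and -0.08 with LTB4, LTC4, LXA4 and LXB4, beside 0.05, 0.11, 0.05 and 0.05 for all genes over a signal of 500. ARHGDIA differed most, and it encodes a GDP-dissociation inhibitor, which holds Rac proteins inactive in the cytosol.

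ARHGDIA had 4160 with LTB4, 5361 with LTC4, 7229 with LXA4 and 4988 with LXB4, against 9672 in unstimulated cells. The log2 differences were -1.22, -0.85, -0.42 and -0.96, with the LTB4 array lowest. By brightest probe sets, ARHGDIA was the 1 list gene at least 2-fold apart on any array, with LTB4. Of all measured genes 2.43%, 2.84%, 2.39% and 2.47% were 2-fold apart with LTB4, LTC4, LXA4 and LXB4. In lists this short, a count of 1 cannot be told from the background. The other 3 ARHGDIA probe sets were also lower on every stimulated array, with the smallest difference, -0.11, with LXA4 and the largest, -1.18, with LTB4. The names of all 3 end in _x_at, so they may bind other transcripts, and they differed in size. They gave -0.54, -0.56 and -1.18 with LTB4, and -0.57, -0.22 and -0.68 with LTC4. The 4 comparisons share the unstimulated array, which was the highest on each of these probe sets.

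RAP1A, a small GTPase found with the membrane part of the oxidase, was higher on all 4 arrays, at 5734 with LTB4, 4987 with LTC4, 4117 with LXA4 and 6097 with LXB4, against 3834 in unstimulated cells, with log2 differences of 0.58, 0.38, 0.10 and 0.67. Its other measured probe set, dim at 121 to 183 with eicosanoids and 121 without, gave 0.31, 0.60, 0.01 and 0.22 with LTB4, LTC4, LXA4 and LXB4. RAC1, the broadly expressed relative of RAC2, differed by -0.05, -0.05, -0.09 and -0.28 with LTB4, LTC4, LXA4 and LXB4, and its other 3 probe sets lay between -0.32 and 0.38. ARHGDIB, the leukocyte GDP-dissociation inhibitor, differed by 0.07, -0.02, 0.06 and -0.10 with LTB4, LTC4, LXA4 and LXB4, the last of which turned to 0.07 after quantile normalization. Of its other probe sets, a dim one had 178 with LTB4, 146 with LTC4, 197 with LXA4 and 312 with LXB4, against 384 in unstimulated cells, with differences of -1.11, -1.40, -0.96 and -0.30, and the bright one differed by 0.01, -0.05, -0.05 and -0.18. PRKCB, a kinase that phosphorylates NCF1, differed by -0.07, 0.22, -0.04 and -0.14 with LTB4, LTC4, LXA4 and LXB4, and its other 5 probe sets ranged from -0.81 to 1.42, the highest on a probe set under the floor in unstimulated cells.

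Of 4 genes of assembly and proton flux, none was 1.2-fold higher on any array, and 2, 0, 0 and 1 were lower with LTB4, LTC4, LXA4 and LXB4, where 8.0%, 6.2%, 4.95% and 10.3% of genes over a signal of 500 were. CYBC1, a chaperone needed for the membrane complex, had log2 differences of -0.28, -0.20, -0.15 and -0.04 with LTB4, LTC4, LXA4 and LXB4, below 0 on all 4 arrays while CYBB was above 0. Any link between them was not tested. HVCN1, the voltage-gated proton channel that balances the charge moved by the oxidase, was above 0 on all 4 (0.22 with LTB4, 0.25 with LTC4, 0.19 with LXA4 and 0.13 with LXB4). NRROS, which promotes the breakdown of the CYBB protein in mouse, gave -0.09, 0.23, 0.03 and 0.15 with LTB4, LTC4, LXA4 and LXB4, with LXA4 at -0.02 after quantile normalization. ATP6V0A1, a subunit of the vacuolar proton pump, gave -0.31, -0.13, -0.01 and -0.37 with LTB4, LTC4, LXA4 and LXB4, and its other probe set -0.32, -0.72, -0.23 and -0.65.

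Among 5 measured transcription factors of oxidase genes, none was 1.2-fold higher, and 2, 1, 1 and 2 were lower with LTB4, LTC4, LXA4 and LXB4, against the same 8.0%, 6.2%, 4.95% and 10.3%. SPI1, which encodes PU.1, had 4630 with LTB4, 5682 with LTC4, 6157 with LXA4 and 5315 with LXB4, against 7471 in unstimulated cells. Its log2 differences of -0.69, -0.39, -0.28 and -0.49 with LTB4, LTC4, LXA4 and LXB4 were below 0 on all 4 arrays. Of the genes with a PU.1 core printed above, CYBB was above 0 on all 4 arrays. NCF1 gave -0.04, 0.29, 0.02 and -0.12 with LTB4, LTC4, LXA4 and LXB4. Any link between SPI1 and these genes was not tested. SPI1 rests on 1 probe set. CEBPA, a myeloid factor, was below 0 as well (-0.29, -0.18, -0.15 and -0.48 with LTB4, LTC4, LXA4 and LXB4), while IRF8 (0.14, 0.22, 0.17 and 0.15) and ELF1 (0.17, 0.13, 0.16 and 0.15), both known activators of CYBB, were above 0. The other ELF1 probe set gave 0.52, 0.34, 0.36 and 0.60 with LTB4, LTC4, LXA4 and LXB4. Of genes over a signal of 500, 60.5%, 72.0%, 62.8% and 59.6% were above 0 with LTB4, LTC4, LXA4 and LXB4. The list median was 0.00, -0.01, 0.03 and -0.10 with LTB4, LTC4, LXA4 and LXB4.

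The enzymes that handle superoxide and peroxide had 7 measured members, of which 1, 2, 1 and 1 with LTB4, LTC4, LXA4 and LXB4 were 1.2-fold higher and 0, 0, 0 and 1 lower. Of genes over a signal of 500, which holds for all but SOD2, 12.2%, 17.6%, 9.53% and 16.7% were as much higher and 8.0%, 6.2%, 4.95% and 10.3% as much lower. Their median was 0.01, 0.24, -0.01 and 0.08 with LTB4, LTC4, LXA4 and LXB4, highest with LTC4. There PRDX1, a peroxiredoxin, had 0.25, GPX1, a glutathione peroxidase, 0.30 and TXN, the thioredoxin, 0.24, while CAT, the catalase, had -0.01. The other TXN probe set gave 0.71 with LTB4, 1.18 with LTC4, 0.23 with LXA4 and 1.05 with LXB4, and the other CAT probe sets 0.02 and 0.05 with LTC4. These 4 genes are all over a signal of 10000, where the median with LTC4 was 0.12. SOD2, the mitochondrial superoxide dismutase, lies outside the naming rule and was chosen after its values were seen: it had 432 with LTB4, 446 with LTC4, 350 with LXA4 and 539 with LXB4, against 272 in unstimulated cells. These SOD2 values rest on 1 probe set. With LXB4 PRDX1 had -0.29 and CAT -0.22, which turned to 0.05 and 0.14 after quantile normalization.

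**Figure D5:**
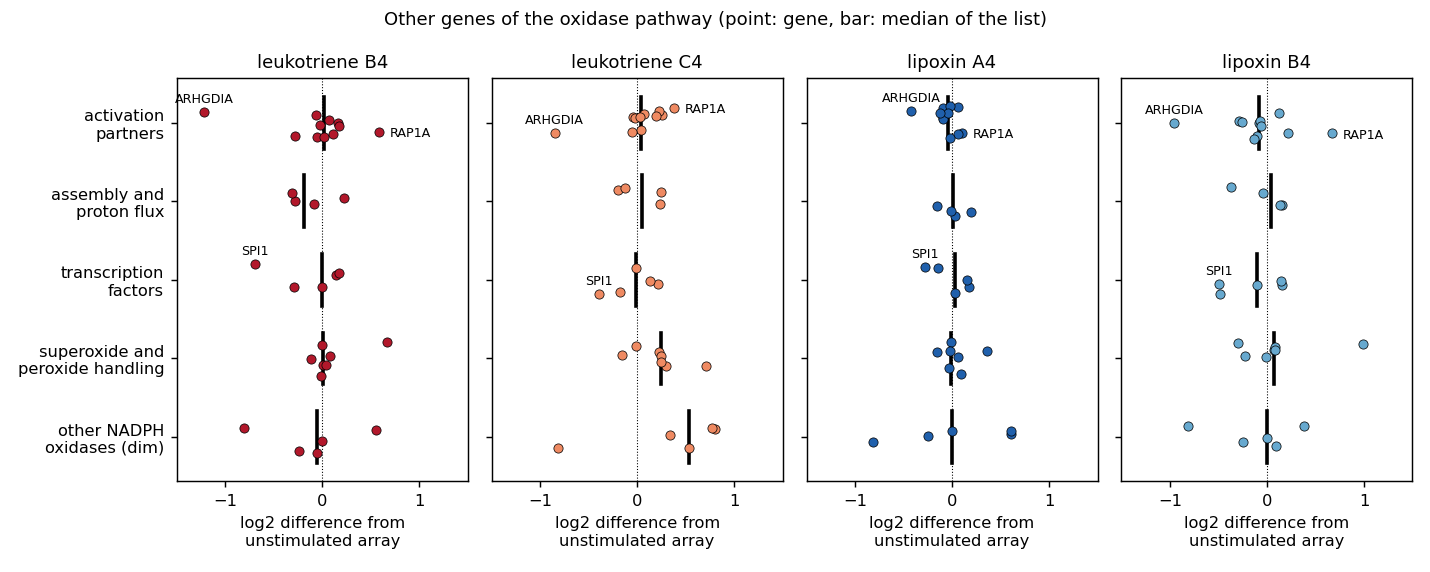
Log2 differences from the unstimulated array (x axis) for the measured genes of 5 lists around the oxidase (y axis), 1 panel per eicosanoid. Each point is a gene by its brightest probe set, spread vertically for legibility, and the black bar is the list median. ARHGDIA and SPI1 lie left of 0 and RAP1A right of 0 in every panel.

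The other NADPH oxidases and their partners were dim or not measured. Of 9 genes listed, NOX3, NOX4, NOXO1 and DUOXA2 were under the floor on every array. NOXA1, an activator of epithelial oxidases, had 122 with LTB4, 146 with LTC4, 128 with LXA4 and 89.4 with LXB4, against 83.6 in unstimulated cells. NOX5, a calcium-activated oxidase, had 56.5 with LTB4, 84.5 with LTC4, 89.2 with LXA4 and 76.1 with LXB4, against 58.5 in unstimulated cells, and its other measured probe set gave log2 differences of -0.59, -0.17, 0.58 and -0.17. NOX1, the colon oxidase, was above the floor in unstimulated cells alone on its brightest probe set (85.4) and with LTC4 alone on another (59.5). DUOX1 was above the floor with LTC4 alone (83.2) and DUOX2 with LTC4 (72.9) and in unstimulated cells (57.6). The list medians were -0.05, 0.53, 0.00 and 0.00 with LTB4, LTC4, LXA4 and LXB4. For single genes below a signal of 200 the SD between stimulated arrays was 0.44, and no reading is made of this list.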

How the data were processed

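The deposited table holds the authors' signal intensity, not log-transformed, for 54675 probe sets on 5 arrays. It was made with GCOS, version 1.4 in the submitters' processing notes, and the summary algorithm behind it, with any parameters, was not given in the sources used here. After trimming 2% of probe sets at each end, the mean signal came to 500.1 on each array, which shows that the arrays had been scaled.

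Signals were converted to log2 and scaled so that the median of the upper 50% of probe sets was equal. They were floored at the 50th percentile of mean log2 signal. Genes were named from probe sets with 1 symbol in the platform annotation, updated through the GRCh38.p14 gene table, and represented by the probe set of highest mean signal. Each condition had 1 array, so differences were computed with no test, and the number of arrays limits the precision. Members and lists were chosen with earlier results of these data known. List genes were named if 2-fold apart on any array, or among the 4 further genes of highest mean signal. Alternatives were floors at the 30th and 70th percentile or none, the deposited scale, quantile normalization, the mean of a gene's probe sets and leaving out probe sets ending in _x_at. Chosen after seeing the data were the other bright NCF4 probe set, the NCF1 probe set shared with pseudogenes, and centring on genes over a signal of 500. Python 3.11.15, numpy 2.4.6 and pandas 2.3.3 were used.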

Additional observations from a re-analysis of the deposited data

How the results depend on the processing

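Over 10 alternative settings, 554 of 569 recomputed log2 differences and medians moved by less than the spread between stimulated arrays at that signal. The other 15 moved by more. None of these values was 2-fold under the main settings, the largest being 0.53, so a turn of a 2-fold value could not be tested. The floor settings could not move the subunit genes. Their lowest signal by brightest probe set, 895 for CYBB in unstimulated cells, is above the highest floor of 244. CYBB kept its sign against unstimulated cells under every scaling. The sign of the median over the subunits turned in 9 recomputed values, all within 0.08 of 0, and that with LTC4 against unstimulated cells ranged from 0.13 to 0.26. The median of the other NADPH oxidases was -0.83 with LXB4 at the 30th percentile floor, and without a floor it was -0.94 with LXB4 and 0.50 with LXA4; these genes are dim and the cause was not tested. With the other NCF4 probe set NCF4 gave -0.38, -0.21 and -0.18 with LTB4, LTC4 and LXB4. The mean of all measured probe sets gave CYBA -0.61 with LXA4, since it includes the dim probe set. At the 70th percentile floor no other NADPH oxidase was measured, and without probe sets ending in _x_at NCF1 had none, so these gave no value. No paired analysis was possible because each condition had 1 array, and for the same reason no replicate could be left out.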
